A study of Mus musculus with 16 samples.

Results

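The ribosome biogenesis factors described here are 41 genes: the transcription factor gene Myc and 40 genes whose products make ribosomal RNA or assemble it into ribosomal subunits. They were chosen by gene symbol, and all 41 were found, each on 1 of the 31053 gene identifiers of the deposited tables. Of them, 40 had 10 or more CPM (UMI counts per 1000000 UMIs of the library, a UMI being the tag of 1 captured RNA molecule) in at least 1 library, as did 7910 genes in all. Heatr1 stayed below that level, at 8.18 CPM in the knockout and 7.79 CPM in the control library.

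The data are single-cell transcriptomes of mouse organoids, epithelial cultures grown from tumours that a carcinogen and an irritant of the colon had raised together (AOM/DSS). The knockout group carries the labels plus TAM and KMT9ko/ko, and the control group minus TAM and KMT9wt/wt. The labels do not spell out TAM. Because only the knockout group is plus TAM, an effect of TAM and one of the knockout cannot be told apart. The sources used here give neither what drives the knockout nor the number of organoid lines or the age of the animals. Both groups were at passage 14, and a day, 5, is named in the titles of the deposited tables alone. Each group is 1 library, its 8 records being parts of that library by the series' design text. No test across replicates could therefore be made, the ratios describe these 2 libraries, and the intervals given are 95% intervals for counting error only. KMT9 is a lysine methyltransferase of histone H4 whose catalytic subunit is encoded by N6amt1 and which needs TRMT112 as a partner.

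Ribosome production starts in the nucleolus, where RNA polymerase I transcribes a long precursor of ribosomal RNA. Small nucleolar RNPs then modify that precursor, those of the box C/D class by methylation and those of the box H/ACA class by pseudouridylation, while assembly factors cut and fold it into the small and the large subunit. MYC is known as an activator of genes at every one of these steps, and in the colon it is a target of Wnt signalling that is high in dividing crypt cells and in tumours.

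The kept cells numbered 1481 in the knockout and 2629 in the control library, with median depths of 24184 and 24604 UMIs. Of the barcodes, 498 occurred in both matrices, and 325 kept knockout cells (21.9%) and 166 kept control cells (6.31%) had such a shared barcode. These cells were deeper than the unshared ones, with medians of 28518 against 23232 UMIs in the knockout and 41123 against 23913 in the control library. For 319 of the 325 and 157 of the 166 the copy in the other matrix was smaller, and 15 barcodes were kept in both libraries. The reason was not tested, and the main values are also given without these cells. N6amt1, the targeted gene, stood at 6.11 CPM in the knockout and 34.1 CPM in the control library (log2 ratio of knockout over control -2.48, interval -2.68 to -2.28), the direction of the labels, although 3′ tags may lie outside the deleted part. All 9 epithelial markers were at 10 or more CPM in at least 1 library and summed to 13865 CPM in the knockout and 12408 CPM in the control library. Of the fibroblast markers 6 of 8, and of the immune markers 5 of 10, were at 0 in both libraries, and the 2 lists summed to 0.268 and 14.7 CPM in the knockout and 0.117 and 10.4 CPM in the control library. The 6 endothelial markers summed to 21.3 CPM in the knockout and 10.8 CPM in the control library. Only Kdr was at 0 in both, and 1 marker was measured, at up to 17.3 CPM, with a log2 ratio of 1.22.

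Promoter windows were taken from RefSeq (build GRCm38.p6, which has the coordinates of mm10) for 35 of the 41 members. They run from 250 bases before to 50 bases after the start site, and were searched for CACGTG, the E-box that MYC and MAX bind, which reads the same on both strands. Myc, Fbl, Npm1, Rrp12, Rrs1 and Bop1 had no entry. The 6 windows below come from members with lower and with near-equal levels in the knockout library, 3 of them with the box (Nop2, Imp4 and Utp20) and 3 without it (Nolc1, Nop56 and Nop10). The box is in capitals, and each window is given on the strand of its gene.
Nop2, chr6:125131633-125131932, plus strand: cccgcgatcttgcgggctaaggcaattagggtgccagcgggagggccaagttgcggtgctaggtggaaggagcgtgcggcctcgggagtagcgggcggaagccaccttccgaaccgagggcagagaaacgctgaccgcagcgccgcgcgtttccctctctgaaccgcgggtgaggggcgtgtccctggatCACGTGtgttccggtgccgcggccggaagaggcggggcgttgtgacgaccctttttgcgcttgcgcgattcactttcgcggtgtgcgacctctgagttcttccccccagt
Imp4, chr1:34439579-34439878, plus strand: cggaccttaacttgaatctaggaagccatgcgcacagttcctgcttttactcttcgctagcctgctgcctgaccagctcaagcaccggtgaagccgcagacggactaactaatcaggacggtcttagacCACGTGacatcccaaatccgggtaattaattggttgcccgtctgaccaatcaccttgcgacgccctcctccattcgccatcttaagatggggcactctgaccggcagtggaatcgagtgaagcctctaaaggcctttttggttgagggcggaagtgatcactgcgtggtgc
Utp20, chr10:88826765-88827064, minus strand: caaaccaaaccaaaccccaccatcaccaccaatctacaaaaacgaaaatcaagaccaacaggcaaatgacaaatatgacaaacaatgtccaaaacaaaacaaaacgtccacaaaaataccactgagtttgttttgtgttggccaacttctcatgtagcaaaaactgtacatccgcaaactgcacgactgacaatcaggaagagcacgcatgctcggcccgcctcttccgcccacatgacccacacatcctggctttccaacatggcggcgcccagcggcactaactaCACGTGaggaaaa
Nolc1, chr19:46075597-46075896, plus strand: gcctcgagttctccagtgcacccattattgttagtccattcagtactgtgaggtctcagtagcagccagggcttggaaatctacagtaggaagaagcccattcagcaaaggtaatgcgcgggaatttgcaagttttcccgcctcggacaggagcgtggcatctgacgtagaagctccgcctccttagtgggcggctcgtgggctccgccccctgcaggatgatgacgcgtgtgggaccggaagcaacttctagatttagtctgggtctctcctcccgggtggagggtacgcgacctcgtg
Nop56, chr2:130274162-130274461, plus strand: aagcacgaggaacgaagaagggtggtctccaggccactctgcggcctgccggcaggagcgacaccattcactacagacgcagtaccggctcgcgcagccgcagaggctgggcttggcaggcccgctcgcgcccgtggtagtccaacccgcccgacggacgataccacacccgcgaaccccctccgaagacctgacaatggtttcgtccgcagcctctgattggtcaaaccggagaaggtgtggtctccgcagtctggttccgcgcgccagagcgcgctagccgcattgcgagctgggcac
Nop10, chr2:112261676-112261975, plus strand: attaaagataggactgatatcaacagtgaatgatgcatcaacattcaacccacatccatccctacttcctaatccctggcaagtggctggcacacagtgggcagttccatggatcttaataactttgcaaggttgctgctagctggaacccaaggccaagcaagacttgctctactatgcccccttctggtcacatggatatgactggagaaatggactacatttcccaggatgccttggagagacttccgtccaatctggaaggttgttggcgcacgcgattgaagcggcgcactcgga

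The box stood 60 bases before the start site of Nop2, 121 bases before that of Imp4 and 37 bases after that of Utp20. Mybbp1a, Pes1, Tsr1 and Wdr43 also held it within 50 bases after the start. That made 7 of 35 members (20%), against 20 of 112 other ribosome biogenesis genes (17.9%), 818 of 6277 measured genes (13.0%) and 2187 of 27025 genes with a promoter entry (8.09%). The ratios of members with and without the box overlapped. The 7 members with it had a median log2 ratio of -0.53 (range -0.94 to -0.08), and the 27 measured members without it in their window had a median of -0.56 (range -0.85 to 0.11). Nop2 and Imp4, with the box, and Nolc1 and Nop56, without it, were all among the lower members described below, while Utp20, with the box, and Nop10, without it, were not.

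A part of the biogenesis factors was lower in the knockout library, while Myc itself was not. Of the 40 measured members 38 had a log2 ratio below 0, as had 4460 of all 7910 measured genes. By size, 14 members were lower by 1.5-fold or more and 0 were higher by as much, where 1.5-fold is a threshold of size with no test behind it. Over all measured genes the same thresholds took 10.7% as lower and 8.12% as higher. The members' median log2 ratio was -0.50, against -0.06 over all measured genes. Summed without Myc, the members held 6010 CPM in the knockout and 7935 CPM in the control library. Without cells of a shared barcode 35 members lay below 0 (4731 of 7832 measured genes), 12 were lower, 0 higher and the median was -0.48, where all measured genes had 11.3% lower, 6.54% higher and a median of -0.10. The count depended on how cells were weighted. When control cells were weighted to the cluster shares of the knockout library, 1 of 39 measured members, Rrs1, was lower and the median was -0.22, with 2.7% of all measured genes lower and a median of -0.02 over them. That weighting rests in part on few control cells, since 314 knockout cells fell with 22 control cells in 1 cluster.

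**Figure D1:**
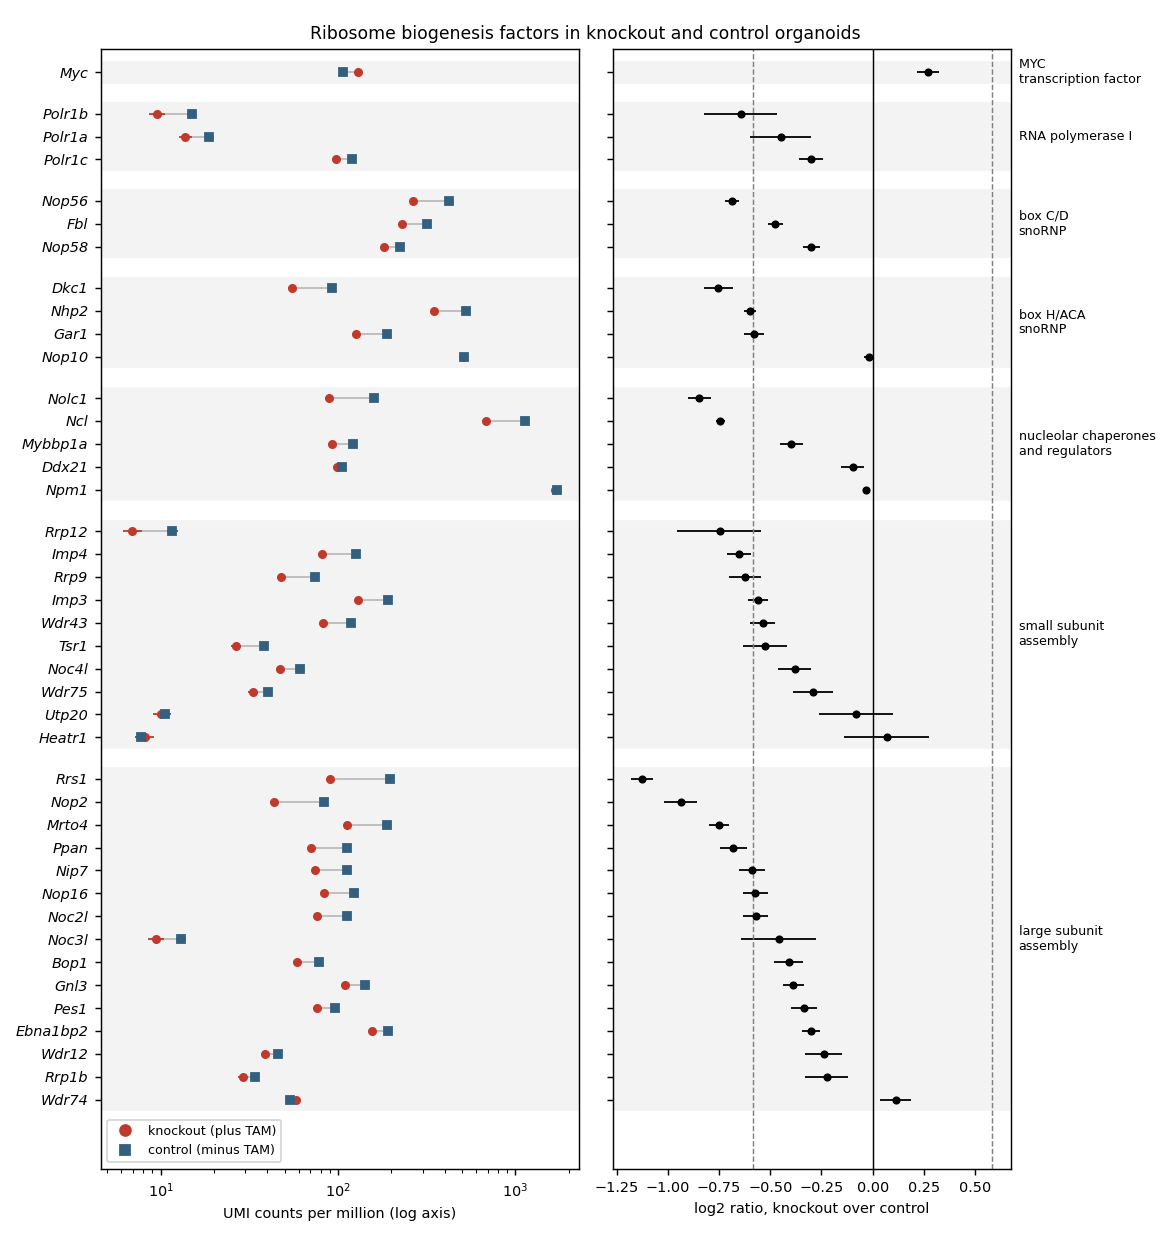
Levels and ratios of the 41 members, grouped by step. The left panel gives CPM (log axis) in the knockout (red circles) and control (blue squares) libraries with Poisson intervals, and the right panel the log2 ratio of knockout over control with its counting interval and dashed lines at 1.5-fold. Myc lies to the right of 0, and most members of every other step lie to the left, out to Rrs1 at -1.13.

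Myc stood at 129 CPM (interval 126 to 133) in the knockout and 107 CPM (105 to 110) in the control library, a log2 ratio of 0.27 (0.22 to 0.32). It was thus slightly higher in the knockout library, by 0.17 without cells of a shared barcode, and did not reach 1.5-fold. The list of MYC network genes encodes MYC relatives, MAX, MLX and proteins that pair with MAX or MLX. Of its 12 genes 7 were measured, 0 were lower and 1 was higher, where 10.7% and 8.12% of all measured genes were. MAX, the obligate partner of MYC, had 123 CPM of its transcript in the knockout and 116 CPM in the control library (log2 ratio 0.08). Mxd1, which encodes a MAX partner that opposes MYC, was the 1 higher gene, at 41.5 CPM in the knockout and 16.1 CPM in the control library (1.37, interval 1.26 to 1.48). Its log2 ratio was 0.81 without cells of a shared barcode. Mlx and Mycl were at -0.57 and -0.53, short of the threshold, and passed it without those cells, at -0.63 and -0.68.

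Among the RNA polymerase I genes the median log2 ratio was -0.45. Polr1b, the second-largest subunit, was lower, at 9.57 CPM (8.60 to 10.6) in the knockout and 14.96 CPM in the control library (log2 ratio -0.64, interval -0.82 to -0.47). Polr1a, the largest subunit, stood at 13.8 CPM in the knockout and 18.9 CPM in the control library (-0.45, interval -0.60 to -0.30). Polr1c, a subunit shared with RNA polymerase III, stood at 97.5 CPM in the knockout and 120.1 CPM in the control library (-0.30, interval -0.36 to -0.25). All 3 thus lay on the same side, with only Polr1b past 1.5-fold. Against 10.7% of all measured genes, 3 of 11 other measured genes of this polymerase and its initiation were lower, and 0 were higher. They were Cd3eap, a polymerase I subunit, at 18.3 CPM in the knockout and 42.4 CPM in the control library (-1.22), the nucleolar factor gene Tcof1 (-0.81) and the subunit gene Polr1e (-0.59). The initiation factor genes Ubtf and Rrn3 were at -0.17 and 0.06, and Taf1d was at 0.28.

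The box C/D snoRNP genes had a median of -0.48. Nop56, a core protein of these particles, was lower, at 263 CPM (258 to 268) in the knockout and 424 CPM in the control library (log2 ratio -0.69, interval -0.72 to -0.65). Fbl, the methyltransferase fibrillarin, stood at 230 CPM in the knockout and 320 CPM in the control library (-0.48), and Nop58, which pairs with NOP56 in the particle, at 182 and 224 CPM (-0.30). The members of this core thus differed in size of ratio but not in side. The counting intervals of the 3 ratios did not overlap, but they hold no spread between replicates.

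The box H/ACA snoRNP genes had a median of -0.59, or -0.51 without cells of a shared barcode. Dkc1, the pseudouridine synthase dyskerin, was lower, at 54.9 CPM (52.6 to 57.3) in the knockout and 92.6 CPM in the control library (log2 ratio -0.75, interval -0.83 to -0.68). Nhp2, which binds the RNA of the particle, was lower at 346 CPM in the knockout and 524 CPM in the control library (-0.60), and Gar1 was just short of the threshold at 126 and 189 CPM (-0.58). Nop10, a small core protein, was the exception in this particle, at 506 CPM in the knockout and 512 CPM in the control library (-0.02, interval -0.04 to 0.01). Without cells of a shared barcode Nhp2 was at -0.53 and no longer past 1.5-fold, and Dkc1 was at -0.67. Of the other snoRNP genes, 2 of 11 (18.2%) were lower, where 10.7% of all measured genes were. These 2 were the assembly factor genes Nufip1 (-0.66) and Znhit6 (-0.64). Snu13, whose product binds the box C/D RNA, was at -0.22.

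The nucleolar chaperones and regulators split into 2 lower members and 3 that did not reach 1.5-fold, with a median of -0.40. Of all measured genes 10.7% were lower. Nolc1, a phosphoprotein that binds snoRNPs, was at 89.1 CPM (86.1 to 92.2) in the knockout and 160.1 CPM in the control library (log2 ratio -0.85, interval -0.90 to -0.79). Ncl, nucleolin, was at 680 CPM in the knockout and 1138 CPM in the control library (-0.74, interval -0.76 to -0.72). Both were lower beyond 1.5-fold with and without cells of a shared barcode. Npm1, the histone and ribosome chaperone nucleophosmin, was at 1664 CPM in the knockout and 1705 CPM in the control library (-0.04), and at 0.07 without those cells. Ddx21, an RNA helicase, was at -0.10, and Mybbp1a, a nucleolar regulator that binds MYB, at -0.40.

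The small subunit assembly genes, most of them parts of the processome that forms on the nascent precursor, had a median of -0.54 over 9 measured members. Of these 9, 3 were lower, where 10.7% of all measured genes were. Rrp12 stood at 6.94 CPM (6.12 to 7.84) in the knockout and 11.7 CPM in the control library (log2 ratio -0.75, interval -0.96 to -0.55). Imp4, a partner of the U3 snoRNP, stood at 80.9 CPM in the knockout and 127 CPM in the control library (-0.65, interval -0.71 to -0.59). Rrp9, a protein of the U3 snoRNP, stood at 48.0 CPM in the knockout and 73.9 CPM in the control library (-0.62), and at -0.57 without cells of a shared barcode, short of the threshold. The processome genes Imp3 (-0.56), Wdr43 (-0.54), Noc4l (-0.38) and Wdr75 (-0.29) and the later-acting Tsr1 (-0.53) had intervals below 0 and did not reach 1.5-fold. Utp20 was at 10.1 CPM in the knockout and 10.7 CPM in the control library (-0.08, interval -0.26 to 0.10), and for Heatr1 the interval also held 0. These were the processome members with the fewest UMIs beside Rrp12. Of 48 other measured small subunit assembly genes 11 (22.9%, against 10.7% of all measured genes) were lower and 0 higher, with a median of -0.43. The lowest were Bysl, at 31.7 CPM in the knockout and 62.8 CPM in the control library (-0.99), Nob1, the nuclease that trims the end of the small subunit RNA (-0.73), and Rcl1 (-0.71). Riok3 was at 0.45, Wdr36 at -0.02 and Fcf1 at -0.03.

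Large subunit assembly held both the lowest member and one above 0. Rrs1, which brings the 5S particle into the large subunit in yeast, was at 89.8 CPM (86.8 to 92.9) in the knockout and 196 CPM in the control library (log2 ratio -1.13, interval -1.18 to -1.07). Nop2, an RNA methyltransferase, was at 43.6 CPM in the knockout and 83.5 CPM in the control library (-0.94, interval -1.02 to -0.86). Rrs1 was the 1 member lower by 2-fold or more, where 2.5% of all measured genes were. Both ratios were nearly the same without cells of a shared barcode, at -1.13 and -0.90. Mrto4, which in yeast holds the place of a stalk protein, was at 113 CPM in the knockout and 189 CPM in the control library (-0.75). Ppan was at 70.4 CPM in the knockout and 113 CPM in the control library (-0.68), and Nip7, a factor of precursor processing, at 74.4 CPM in the knockout and 112 CPM in the control library (-0.59). These 5 of 15 members were lower by 1.5-fold or more, where 10.7% of all measured genes were, and the median of the step was -0.46. Nop16 and Noc2l, at -0.57 each, lay just short of the threshold. Bop1, Pes1 and Wdr12, whose products form 1 complex, had ratios of -0.41, -0.34 and -0.24. Noc3l (-0.46), Gnl3, the nucleolar GTPase nucleostemin (-0.39), Ebna1bp2 (-0.30) and Rrp1b (-0.22) were in the same range. Wdr74 was at 58.3 CPM in the knockout and 53.9 CPM in the control library (0.11, interval 0.04 to 0.19). Of 45 other measured large subunit genes 8 (17.8%, against 10.7% of all measured genes) were lower and 0 higher. Ddx55 (-1.08), Nol12 (-1.004) and Ddx56 (-0.91) were lowest, and Sbds, a factor of the last cytoplasmic step, was at 0.17.

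The 6 steps had medians between -0.59 and -0.40, and every step had members on both sides of -0.45. Taken over 5 lists, other ribosome biogenesis genes had 28 of 130 measured genes lower and 0 higher, with a median of -0.40, and the list of the exosome and nucleases of the precursor had 4 of 15 lower, with Exosc2 at 19.2 CPM in the knockout and 37.3 CPM in the control library (-0.96). The transcripts that encode proteins of the finished ribosome did not share the shift. Of 81 cytosolic ribosomal protein genes 0 were lower and 3 higher, where 10.7% of all measured genes were lower and 8.12% higher. Their median was -0.00, or 0.08 without cells of a shared barcode. The 3 higher genes were Rpl39 (0.70), Rps28 (0.66) and Rpl36a (0.65). This family has many pseudogenes, and whether they affected these counts was not tested. Bud23, an rRNA methyltransferase that like KMT9 needs TRMT112, stood at 48.2 CPM in the knockout and 70.7 CPM in the control library (-0.55), and Trmt112 at 165 and 209 CPM (-0.34).

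Genes of the cell cycle were also lower in the knockout library. Of 37 measured S phase genes 34 were lower, and of 43 measured G2 and M phase genes 28, where 10.7% of all measured genes were. Their median log2 ratios were -1.13 and -0.68. The 2 lists had summed levels of 946 and 2164 CPM in the knockout and 1862 and 3219 CPM in the control library. Markers of other epithelial states also differed between the libraries. Colonocyte markers summed to 430 CPM in the knockout and 169 CPM in the control library, and to 131.5 and 164 CPM without cells of a shared barcode. Squamous markers had a median log2 ratio of 1.03 over 7 measured genes, with sums of 1065 CPM in the knockout and 1109 CPM in the control library, and tuft markers summed to 17.8 and 86.6 CPM. The part of these states in the members' ratios was not tested beyond the cluster weighting above. For the cell cycle, cells of both libraries were sorted into 3 ranges of equal cell number (low, middle and high) by the share of their UMIs in these 2 lists, with cuts at 1552 and 2986 CPM. The ranges are not cell types, and 662 and 224 cells lay within 10% of the cuts. The low range held 792 knockout and 578 control cells, the middle 418 and 952, and the high 271 and 1099. Summed members without Myc were at 5294 CPM in the knockout and 6484 CPM in the control cells of the low range, at 6201 and 7592 CPM in the middle range, and at 7555 and 8915 CPM in the high range. The summed level was thus lower in knockout cells within every range, and in both libraries it was higher in each more strongly cycling range. Log2 ratios lay below 0 for 34 of 38 measured members in the low, 35 of 39 in the middle and 35 of 40 in the high range. Over all measured genes the median log2 ratio was also below 0 in these ranges, at -0.01, -0.02 and -0.10. In the low range 5 of 38 measured members were lower by 1.5-fold or more, where 5.72% of all measured genes were. The middle range had 6 of 39 (7.71% of all measured genes), and the high range 8 of 40 (10.5%). The members' median log2 ratio was -0.37, -0.41 and -0.38 from the low to the high range, smaller in size than the -0.50 of the whole libraries. Without cells of a shared barcode the members' median was -0.30, -0.31 and -0.42, with 4, 2 and 9 members lower, where 6.71%, 8.55% and 11.8% of all measured genes were. Rrs1 was lower in all 3 ranges, with log2 ratios of -0.81, -0.96 and -1.09, and so was Nop2, with -0.67, -0.74 and -0.87. Npm1 had ratios of -0.06, 0.05 and 0.18, and of 0.07, 0.18 and 0.21 without cells of a shared barcode, which turned its direction in the low range. Myc had 136.5, 133 and 106 CPM in knockout cells of the low, middle and high ranges and 111, 115 and 98.6 CPM in control cells. Its log2 ratios of 0.30, 0.21 and 0.10 became 0.21, 0.18 and -0.08 without cells of a shared barcode.

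Clusters were made from the cells of both libraries without the members and the other biogenesis lists, which left 12 clusters, of which 4 held 100 or more cells of each library. Most clusters came largely from 1 library, so cluster and library are in part the same thing, and only the 4 are compared. Cluster 4 was fetal-like by its markers, led by Inhba, Hba-a2, S100a7a, Ccl5 and Clu, with the chemokine gene Ccl5 among its leading genes, and cluster 8 was G2 and M phase-like. Clusters 1 (led by Cxcl14, Cadps, Rhoj, Ldhb and Aldh1l1) and 2 (led by Hamp, Krt83, Spsb1 and the heat shock genes Dnaja4 and Hspb1) took no name.

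**Figure D2:**
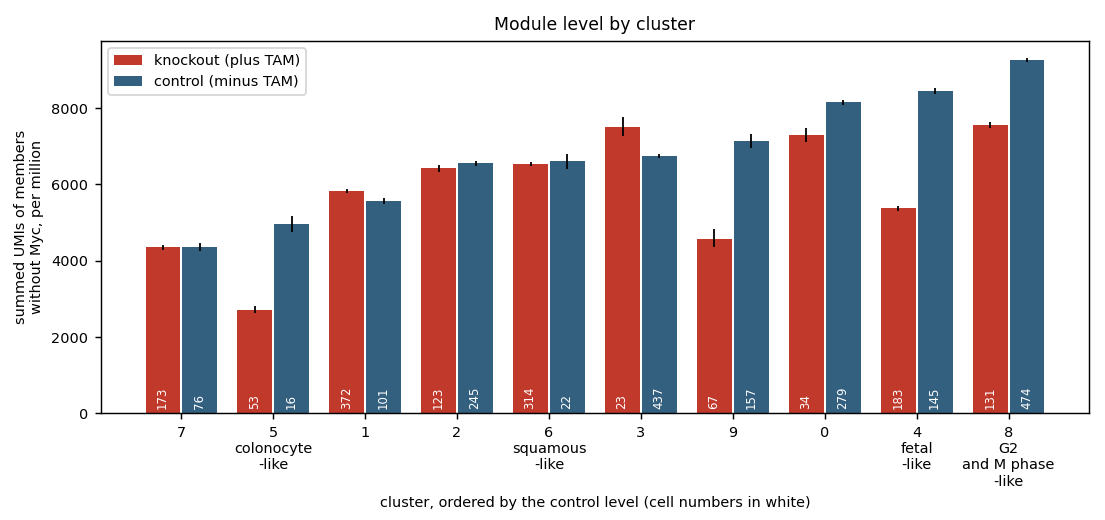
Summed level of the members without Myc, in CPM, in the 10 clusters with 10 or more cells of each library, ordered by the control level, with knockout cells left of control cells and Poisson intervals. Cluster 10, with 7 knockout and 670 control cells, and cluster 11, with 1 and 7, are not shown. The clusters 1, 2, 6 and 7 have nearly equal bars, the knockout bar is well below the control bar in clusters 4 (5373 and 8437), 5 (2718 and 4953) and 9 (4579 and 7145), and in cluster 3 it is the higher one (7515 and 6736). Few cells stand behind some bars, with 53 knockout and 16 control cells in cluster 5, 67 and 157 in cluster 9, and 23 and 437 in cluster 3. The cells of cluster 9 were shallow, with median depths of 3898 UMIs in knockout and 3738 in control cells. In cluster 5 these depths were 13305 and 28168 UMIs, and 22 of the 53 knockout cells had a shared barcode.

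Among the 4 clusters compared, the gap between the libraries was largest in the fetal-like one. Its 183 knockout cells held 5373 CPM of summed members without Myc (5310 to 5436), against 8437 CPM (8359 to 8515) in its 145 control cells, a log2 ratio of -0.65 (interval -0.67 to -0.63). There 28 of 40 measured members were lower by 1.5-fold or more and 0 higher, with a median of -0.70, where 12.2% of all measured genes were lower and 16.0% higher. Each step had a median below -0.60, from -0.88 for the box H/ACA genes to -0.61 for the nucleolar regulators. Rrs1 was at 92.1 CPM in knockout and 240.1 CPM in control cells (-1.38, interval -1.54 to -1.23), Ncl at 545 and 1137 CPM (-1.06), Dkc1 at 45.5 and 97.6 CPM (-1.10) and Polr1b at 8.71 and 19.3 CPM (-1.15). Npm1 was at -0.31 and Wdr74 at 0.21. Myc, at 192 CPM in knockout and 206 CPM in control cells (-0.10, interval -0.23 to 0.02), was high in this cluster in both libraries. The 131 other biogenesis genes measured there had 48 lower, 1 higher and a median of -0.51. Of the knockout cells of this cluster 72 had a shared barcode, as had 20 of the control cells. Without them 30 of 40 members were lower, with a median of -0.73, where 14.3% of all measured genes were. Its cell cycle lists summed to 1526 CPM in knockout and 1776 CPM in control cells. Over the cells outside this cluster 12 of 40 members were lower (10.6% of all measured genes), with a median of -0.47.

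In the G2 and M phase-like cluster, with 131 knockout and 474 control cells, the summed level was 7546 CPM in knockout and 9252 CPM in control cells (log2 ratio -0.29, interval -0.31 to -0.28). Here 11 of 40 members were lower, with a median of -0.39, and 14.3% of all measured genes were. Rrs1 was at 115 CPM in knockout and 263 CPM in control cells (-1.19), Nop2 at 46.7 and 97.0 CPM (-1.06) and Nolc1 at 128 and 218 CPM (-0.77). Nop58 was at -0.05 and Npm1 at 0.14, and Myc stood at 109 CPM in knockout and 95.1 CPM in control cells (0.20). Too few knockout cells with an unshared barcode (91) were left for a value without the shared ones.

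Clusters 1 and 2 had no member lower by 1.5-fold or more when all kept cells were used. In cluster 1, with 372 knockout and 101 control cells, the summed level was 5831 CPM in knockout and 5561 CPM in control cells (log2 ratio 0.07, interval 0.04 to 0.09), and 0 of 37 members were lower, where 2.62% of all measured genes were. Its median over members was 0.12, and 0.15 without cells of a shared barcode. Rrs1 was at 87.4 CPM in knockout and 110.5 CPM in control cells (-0.34), and Ncl at 636 and 694 CPM (-0.13). In cluster 2, with 123 knockout and 245 control cells, the level was 6420 CPM in knockout and 6553 CPM in control cells (-0.03, interval -0.06 to -0.00). Of its 39 measured members 0 were lower and 2 higher, where 9.06% of all measured genes were lower and 8.19% higher. Rrs1 was at 102 CPM in knockout and 144 CPM in control cells (-0.51), and without cells of a shared barcode it was the 1 member lower, at -0.62, with 2 higher (10.1% and 7.63% of all measured genes were lower and higher there). The 2 higher members were Myc, at 127 CPM in knockout and 82.5 CPM in control cells (0.63, interval 0.43 to 0.83), and Utp20, at 13.8 and 8.51 CPM on 42 and 45 UMIs (0.69, interval 0.05 to 1.33). In these 2 clusters the level of the control cells was below that of the whole control library. The control cells with the highest levels lay elsewhere, in clusters 0, 4, 8 and 10. Cluster 10, at 8427 CPM in control cells, held 670 control cells (25.5% of the kept cells of that library) and 7 knockout cells (0.47%). The difference between clusters was not tested, as each is a set of cells from the same 2 libraries.

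**Figure D3:**
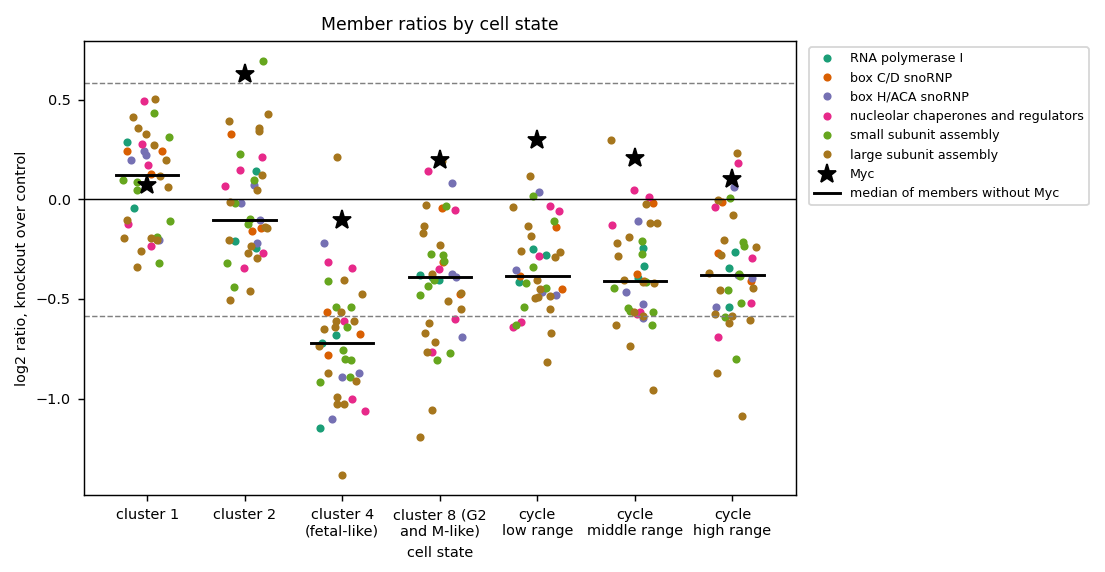
Log2 ratio of knockout over control of each measured member in the 4 clusters and 3 cell cycle ranges with 100 or more cells of each library, coloured by step, with the median of members without Myc as a line and Myc as a star. Members centre near 0 in clusters 1 and 2, below the lower dashed 1.5-fold line in cluster 4, and between 0 and that line elsewhere, and the star stands above the line of the median except in cluster 1.

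Cell by cell, the members without Myc made up a median of 5581 CPM of a cell's own UMIs in the knockout and 7615 in the control library. The quartiles were 4326 and 7021 in knockout cells and 5919 and 9252 in control cells, so the libraries overlapped. Of knockout cells 17.8% lay above the control median, or 20.3% without cells of a shared barcode. To set the members next to Myc at equal depth, each cell was thinned to 5000 UMIs, which left out 94 knockout and 142 control cells that were shallower. In the knockout library, cells with 0, 1, 2 and 3 or more Myc UMIs held means of 29.3, 29.0, 29.1 and 29.2 UMIs of the other members. The control cells held 37.9, 39.0, 39.8 and 39.6. The means of the 4 classes of knockout cells thus lay below those of all 4 classes of control cells. The knockout means did not differ beyond their counting intervals. Among control cells the mean was 39.8 (38.9 to 40.8) at 2 Myc UMIs and 37.9 (37.6 to 38.2) at none. These intervals cover counting error only and leave out the spread over cells. The standard deviation over control cells was 12.7 at 2 Myc UMIs and 12.9 at none. Differences between the Myc classes were not tested. In control cells of the middle cell cycle range the means were 35.1, 37.6, 39.1 and 40.2 for 0, 1, 2 and 3 or more Myc UMIs. In knockout cells of that range they were 30.1, 31.3, 28.5 and 33.6. The low range had 30.8, 31.4, 32.3 and 28.35 in control cells and 26.2, 25.7, 26.5 and 24.5 in knockout cells. The high range had 44.0, 43.9, 46.1 and 46.1 in control cells and 36.4, 36.3, 42 and 36.55 in knockout cells. From the low to the high range, the class of 3 or more held 26, 39 and 41 control cells and 48, 33 and 11 knockout cells. At this depth 829 of 1387 knockout cells (59.8%) and 1674 of 2487 control cells (67.3%) had no Myc UMI, and a cell with none may still express the gene. The thinned cells were also sorted by whether they held an N6amt1 UMI before thinning. Knockout cells with and without one held 29.95 (29.19 to 30.74) and 29.11 (28.81 to 29.42) member UMIs per cell. Control cells held 38.87 (38.54 to 39.2) and 37.69 (37.33 to 38.05). Cells with an N6amt1 UMI had been deeper, with medians of 27109 against 24628 UMIs in the knockout and 27405 against 22844 in the control library. These differences were not tested.

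**Figure D4:**
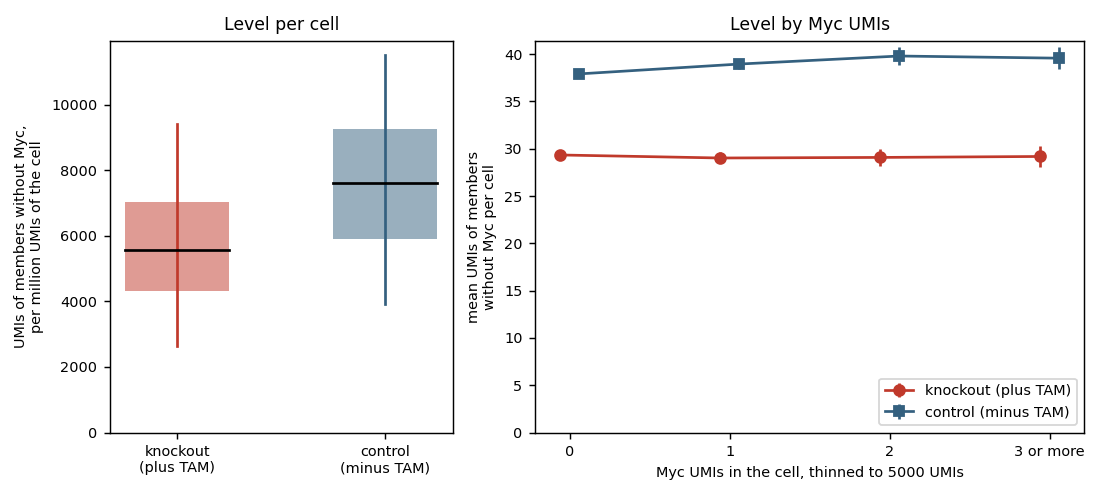
Left, members without Myc as CPM of a cell's own UMIs in knockout and control cells, with the median as a line, the quartiles as a box and the 5th to 95th percentile as a vertical line. Right, mean UMIs of the members without Myc per cell against Myc UMIs after thinning to 5000 UMIs, with Poisson intervals; the knockout points stay near 29 and the control points between 37.9 and 39.8.

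Some members share a stretch of genome with a gene on the opposite strand, and the sources used here do not say whether strand was used in counting. Among the lower members these were Nop56 (with Idh3b), Dkc1 (Mpp1), Nhp2 (Rmnd5b), Rrp9 (Parp3) and Imp4 (Gm28306), and Mrto4 has 2 named pseudogenes, Mrto4-ps1 and Mrto4-ps2. Rrs1, on chromosome 1 from 9545408 to 9547455 (mm10, plus strand), Nop2, on chromosome 6 from 125131909 to 125144753 (plus strand), and Nolc1, on chromosome 19 from 46075863 to 46085530 (plus strand), overlap no other annotated gene on the opposite strand.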

How the data were processed

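Version 2 chemistry of the 10x Chromium 3′ protocol was used, per the labels' protocols. The authors deposited raw UMI counts for each gene in each cell, written by Cell Ranger 3.1.0, per the file headers, against mm10, per the submitters' processing notes. The sources used here name no annotation for them.

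Kept cells had 1000 or more genes, 2000 or more UMIs and no more than 20% mitochondrial UMIs (579 of 2078 knockout and 931 of 3618 control barcodes removed). Scrublet's own threshold marked 3 and 12 cells, under 0.5%, so the top scores were removed instead, 0.8% per 1000 cells (18 and 58 cells). Kept cells held 37301715 and 68666384 UMIs. Library sums of the counts were scaled to CPM. A gene was measured from 10 CPM in 1 library upwards, ratios used no pseudocount, a count of 0 took a floor of 3 counts, and 1.5-fold was a size threshold. Exact 95% intervals (Poisson for levels, conditional binomial for ratios) cover counting error only. Clustering (scanpy 1.11.5) used 2000 variable genes, 30 components, 15 neighbours and Leiden resolution 0.8, with no integration of the libraries. A cluster took a name from 3 or more markers of a class at 2-fold or more, 2 of them among its 10 leading genes. Positions came from GENCODE M21, where 31011 of 31053 identifiers matched. The ratio code was tested on simulated counts.

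The members and gene lists were chosen with earlier results of these data known. All members, N6amt1, Trmt112, Bud23, up to 3 of the largest and smallest ratios per other list and up to 5 leading genes per cluster could be named. Alternatives covered cell filters, doublets, shared barcodes, minimum CPM, scaling (edgeR 4.0.16 factors among them), cell weighting, thinning, transcript length and a 2-fold threshold.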

Additional observations from a re-analysis of the deposited data

Results flagged for a closer look

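Utp20, which encodes a processome protein, passed 1.5-fold in opposite directions in 2 clusters, with a log2 ratio of 0.69 in cluster 2 (13.8 CPM in knockout and 8.51 CPM in control cells) and of -0.64 in the fetal-like cluster 4 (7.55 CPM in knockout and 11.8 CPM in control cells). The values rest on 42 and 45 UMIs in cluster 2 and on 39 and 63 UMIs in cluster 4, with intervals of 0.05 to 1.33 and of -1.26 to -0.04. The difference between the clusters was not tested. Without cells of a shared barcode the ratios were 0.80 and -0.80.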

How the results depend on the processing

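No paired analysis was possible because each group is 1 library and its records are parts of it. No member was higher by 1.5-fold or more under any of the 17 alternatives tried, 2 of them (without cluster 9 and without the fetal-like cluster) chosen after seeing the data, as were all alternatives for cell states. Lower members numbered between 11 and 18 under 15 alternatives. Among these, 11.3% of all measured genes were lower without cells of a shared barcode and 10.6% without the fetal-like cluster, against 10.7% in the main values. Shares under the rest of the 15 are not given here. At a 2-fold threshold 1 member was lower (2.5% of all measured genes), as was 1 with control cells weighted to the knockout's cluster shares (2.7%). That weighting gave medians of -0.22 for all members, -0.26 for RNA polymerase I, -0.15 (box C/D), -0.24 (box H/ACA), -0.26 (small subunit) and -0.22 (large subunit), and turned the nucleolar regulators to 0.015 (-0.40 in the main values). The cause was not tested. Set against genes with transcripts of like length, the medians were -0.43 for all members, -0.63 (RNA polymerase I), -0.43 (box H/ACA) and -0.42 (small subunit). Without cells of a shared barcode they were -0.38 (RNA polymerase I), -0.38 (box C/D), -0.51 (box H/ACA) and -0.31 (nucleolar regulators). RNA polymerase I, with 3 genes, moved to -0.30 at a minimum of 50 CPM, -0.65 with per-cell means and -0.31 after thinning. Thinning moved the nucleolar regulators to -0.31 and a minimum of 50 CPM the large subunit to -0.57. Other scalings moved ratios by at most 0.04 in size.

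The module's log2 ratio in clusters 1, 2, 4 and 8 was 0.038, -0.060, -0.68 and -0.32 with TMM factors, and -0.32, -0.32 and -0.27 in the low, middle and high cell cycle ranges. Without Npm1 and Ncl it was -0.083, -0.70 and -0.39 in clusters 2, 4 and 8 and -0.33, -0.37 and -0.34 in the ranges. Without cells of a shared barcode it was 0.10 in cluster 1, -0.59 in cluster 4, -0.23 in the low and -0.20 in the middle range. With per-cell means it was -0.32 in cluster 8, -0.27 in the low and -0.26 in the high range. No direction of the module in these clusters and ranges changed. One library per group, uneven clusters and the shared barcodes limit all values, and Heatr1, Rrp12, Utp20, Noc3l and Polr1b rest on the fewest UMIs.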
